A study of Homo sapiens with 6 samples.

Results

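The proteasome genes described here are the protein-coding genes whose GENCODE symbol is PSMA, PSMB, PSMC, PSMD, PSME, PSMF or PSMG followed only by a number. This rule picked 48 of the 58735 genes in the deposited table, without using any measured value. They comprise 8 genes of the core alpha ring, 7 constitutive and 4 inducible or tissue-restricted genes of the core beta ring, 6 cap ATPases, 11 other cap subunits, 4 activator genes, 1 inhibitor and 7 assembly factors. Levels are given in FPKM, fragments per kilobase of exon on a scale set for each library, which allows genes to be compared per length. That scale follows size factors from medians of ratios between libraries and not the total of fragments. Of the 48 genes, 42 had a mean of 1 FPKM or more over the 6 libraries and were among the 12960 genes tested.

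The cells were C4-2B MDVR, a prostate cancer line that derives from C4-2B and was selected for resistance to enzalutamide, an antiandrogen. They were treated for 2 days and sequenced as paired-end mRNA libraries. The groups were 20 µM PTUPB plus enzalutamide, 10 µM PTUPB plus enzalutamide, 20 µM PTUPB, 10 µM PTUPB, 20 µM enzalutamide and the DMSO control, with 1 library each. PTUPB inhibits both cyclooxygenase-2 and soluble epoxide hydrolase. The labels give the enzalutamide dose only for the library with enzalutamide alone, and the same dose was assumed in the combinations. All groups are 1 cell line, so neither a donor nor a second line stands behind any value.

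The proteasome is the protease that degrades ubiquitin-tagged proteins. Its barrel-shaped core is a stack of alpha and beta rings, and the proteolytic sites sit in the beta rings. A cap unfolds substrates with a ring of ATPases and removes ubiquitin chains, activators open the core by another route, and chaperones assemble the core and the cap. In many human cells the subunit genes are driven together by the transcription factor NFE2L1, which accumulates when the proteasome cannot keep up. Prostate cancer cells rely on the proteasome for turnover of many proteins.

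The libraries held 20156523 to 29450436 fragments. The 2 libraries with 20 µM PTUPB were the shallowest, with 20156523 fragments with enzalutamide and 22368705 without, and they also listed the fewest genes above 0, 19522 and 20891, against 22276 to 26013 in the other 4. The 42 tested proteasome genes had 76 to 12495 fragments per library, and 41 of them had over 100 in every library. Of 10 markers of luminal prostate cells, 7 fell at 20 µM PTUPB, KLK3 and KLK2 among them, where 18.2% of all tested genes fell. The summed level of the 10 was 330 to 339 FPKM in the 20 µM libraries, against 889 to 1118 FPKM in the other 4. KRT8, KRT18 and EPCAM did not pass the test. Markers of basal epithelium, blood and endothelium summed to at most 0.674, 0.452 and 0.496 FPKM in any library, and stromal markers to 3.63 to 6.57 FPKM, of which COL1A1, which rose at 20 µM, made up most. In bulk libraries fewer cells of a type and less RNA per cell cannot be told apart, and what depth or the luminal genes contribute to the proteasome results was not tested.

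Several proteasome promoters carry the antioxidant response element core, the letters that NFE2L1 and its relative NFE2L2 bind together with a small MAF protein. RefSeq promoter windows on GRCh38.p14, from 250 bases before to 50 after a gene start, matched 42 of the 48 genes. PSMA7, PSMB1, PSMB6, PSMB7, PSMD4 and PSMG3 had no window. The sequences below are shown because PSME4 and PSMC4 were higher at 20 µM PTUPB than at 10 µM, while PSMB3, PSMD3 and PSMD12 carry the same letters and did not pass that test. Capitals mark the match to TGACNNNGC, and each sequence is printed 5′ to 3′ on the strand that holds the match.
PSME4, chr2:53970994-53971052, plus strand, opposite to the gene: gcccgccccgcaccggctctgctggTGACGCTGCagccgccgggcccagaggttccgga
PSMC4, chr19:39971182-39971210, minus strand, opposite to the gene and after its start: tcctccatagTGACCAAGCcggcctctgt
PSMB3, chr17:38752612-38752670, plus strand, same as the gene: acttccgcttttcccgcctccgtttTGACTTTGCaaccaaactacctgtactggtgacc
PSMD3, chr17:39980745-39980803, plus strand, same as the gene: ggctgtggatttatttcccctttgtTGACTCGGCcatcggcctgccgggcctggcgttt
PSMD12, chr17:67366709-67366767, minus strand, same as the gene: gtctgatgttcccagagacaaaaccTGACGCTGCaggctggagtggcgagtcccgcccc

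In the levels that follow, values stand in the order 0, 10 and 20 µM PTUPB. The value at 0 µM is enzalutamide alone in the arm with enzalutamide and the DMSO control in the arm without it. Differences are on the scale log2(FPKM + 1), which understates changes of genes at a few FPKM. The additive effect of a dose is the limma estimate from all 6 libraries, with PTUPB as 3 levels and enzalutamide as a second term. With 1 library per group a gene's own error comes from 2 residual degrees of freedom. These measure how far the 2 arms depart from parallel and not the spread between replicates. Limma then draws each gene's variance toward a trend over all tested genes, so every SE and p-value also rests on other genes. P-values are two-sided and Benjamini-Hochberg adjusted over all 12960 genes.

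At 20 µM PTUPB, 8 of the 42 tested proteasome genes rose and 0 fell. They are spread over every tested group: PSMA3, PSMB2, PSMB6, PSMC4, PSMD8, PSME4, PSMF1 and PSMD10. The share of 19% is near the 15.9% of all tested genes that rose, while 18.2% of all genes fell. The median additive effect over the 42 genes was 0.42, against 0.00 over all tested genes, and 31 of the 42 effects were positive. At an unadjusted p under 0.05 limma gave 15 of the 42 genes, where 46.5% of all tested genes reached that level in either direction.

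Set against 10 µM, 20 µM PTUPB left 16 of the 42 genes higher and 0 lower. The share of 38.1% stands beside 16.5% of all tested genes higher and 16.9% lower, and the median effect was 0.54, against 0.02 over all tested genes. The called genes were PSMA3, PSMB1, PSMB2 and PSMB6 of the core, PSMC2, PSMC3, PSMC4 and PSMC6 of the cap ATPases, PSMD7, PSMD8, PSMD11 and PSMD14 of the other cap subunits, PSME4, PSMF1, PSMD10 and PSMG3. At an unadjusted p under 0.05 limma gave 22 of the 42, against 46.8% of all tested genes in either direction. Both counts depend on single libraries. Leaving out the library of 10 µM PTUPB or of 10 µM plus enzalutamide gave 0 genes higher at 20 than at 10 µM, leaving out control or enzalutamide alone gave 7, leaving out 20 µM plus enzalutamide gave 8, and leaving out 20 µM PTUPB gave 23. For the effect of 20 µM PTUPB against no PTUPB the corresponding counts were 4 with either of the 10 µM libraries left out, 0 without control or enzalutamide alone, 4 without 20 µM plus enzalutamide and 21 without 20 µM PTUPB. Without the filter on low values, 2 proteasome genes rose at 20 µM and 1 was higher at 20 than at 10 µM. Over all 31321 genes the counts were then 544 and 425. In each of these fits the count of all tested genes that were higher moved in the same direction as the proteasome count.

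**Figure D1:**
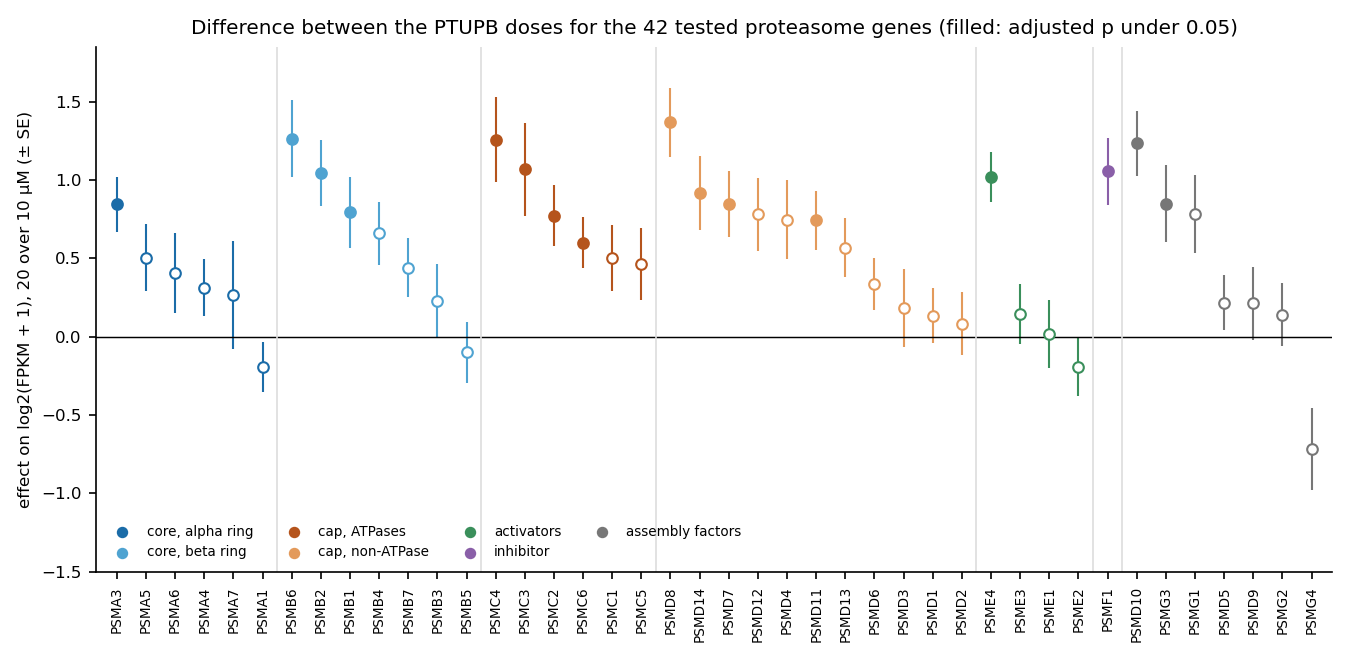
Additive effect on log2(FPKM + 1) of 20 over 10 µM PTUPB (y axis, bars ± SE) for the 42 tested proteasome genes, grouped and coloured by part of the proteasome, filled where the adjusted p is under 0.05. All 16 filled points lie above 0, PSMD8 is highest at 1.37, and PSMG4 lies lowest at -0.72.

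Without any model, both 20 µM libraries lay above all 4 others in 28 of the 42 genes, 66.7%, against 30.3% of all tested genes. They lay below all 4 others in 1 gene, PSMG4, against 29.5% of all tested genes. This ordering was counted after the values were seen. With levels rescaled to TPM, where each library sums to the same total, the count was 24, or 57.1%, against 29.7% of genes. With scaling to total fragments it was 23, or 54.8%, against 27.4%.

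**Figure D2:**
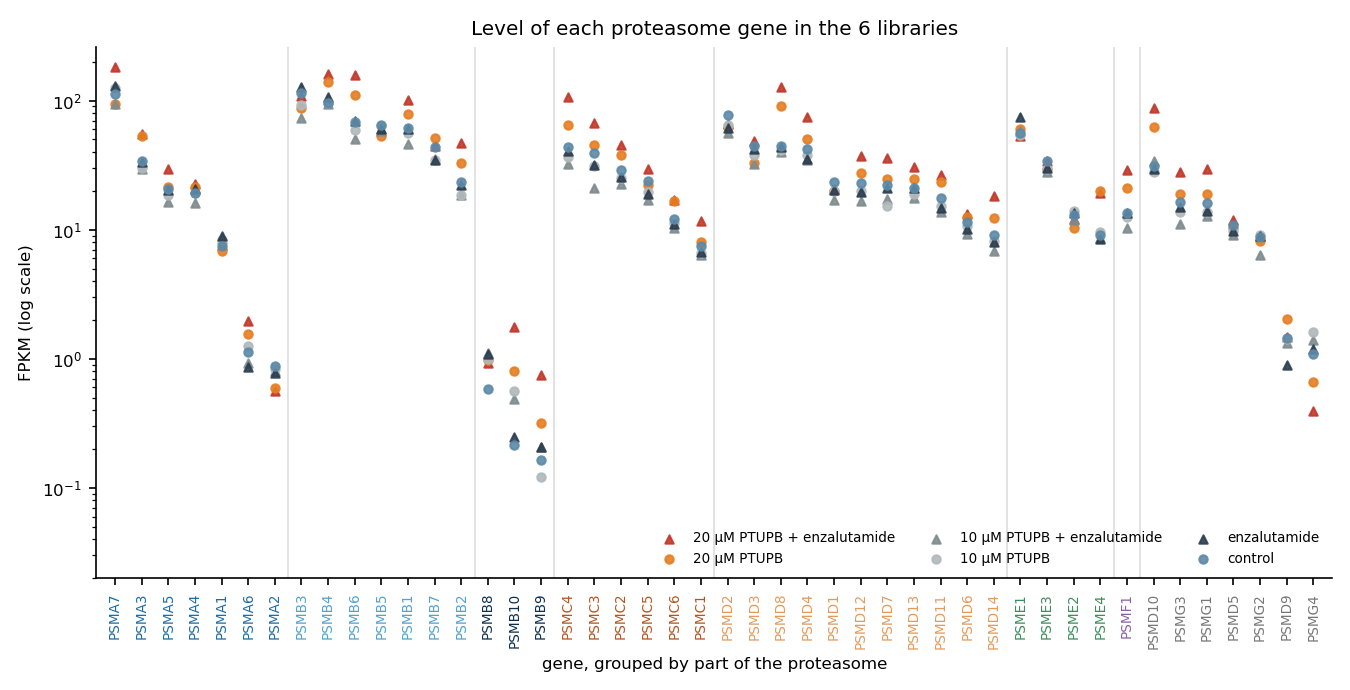
Level in FPKM (log axis) of the 46 proteasome genes above 0 in any library, grouped by part of the proteasome, with 1 point per library. Triangles are libraries with enzalutamide and circles those without. PSMA7 reaches 183 FPKM in the library of 20 µM PTUPB plus enzalutamide, and PSMB9 is as low as 0.121 FPKM with 10 µM PTUPB.

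The core alpha ring forms the gate of the barrel. Of its 8 genes 6 were tested and 1 rose at 20 µM PTUPB, 16.7% beside 15.9% of all tested genes. The median effect was 0.21. PSMA3 had 33.5, 29.5 and 55.1 FPKM with enzalutamide and 33.9, 30.0 and 53.3 FPKM without it. Both 20 µM libraries were above the other 4, and the additive effect was 0.67 ± 0.18 (SE, limma adjusted p = 0.0346). PSMA7 was the most abundant alpha gene and moved apart between the arms, with 130, 94.7 and 183 FPKM with enzalutamide and 112, 126 and 94.5 FPKM without it. Its 20 µM library was the highest of the arm with enzalutamide and the lowest of the arm without it, and its additive effect of 0.12 ± 0.35 did not pass (adjusted p = 0.809).

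PSMA6 and PSMA1 stood at lower levels. PSMA6 had 0.871, 0.931 and 1.98 FPKM with enzalutamide and 1.13, 1.25 and 1.57 FPKM without it, an additive effect of 0.47 ± 0.26 (adjusted p = 0.205). PSMA1 had 8.93, 8.46 and 7.58 FPKM with enzalutamide and 7.46, 8.31 and 6.86 FPKM without it, an effect of -0.16 ± 0.16 (adjusted p = 0.477). The 20 µM library was the lowest of each arm for PSMA1 and the highest of each arm for PSMA6. PSMA2 fell outside the test, at 0.783, 0.808 and 0.562 FPKM with enzalutamide and 0.878, 0.831 and 0.595 FPKM without it. PSMA8, the alpha subunit of the testis proteasome, was listed at 0 in every library. PSMA1, PSMA2 and PSMA6 share 24.7%, 14.6% and 14.1% of their exon bases with another gene on the same strand, AC018523.2, AC010132.3 and AL121594.1, each of which was at 0.119 FPKM or less in every library, and the sources used here do not say how fragments in shared exons were counted.

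The constitutive beta ring holds the 3 catalytic subunits PSMB5, PSMB6 and PSMB7, of which PSMB6 rose at 20 µM PTUPB; the difference among the 3 was not tested. PSMB6, the caspase-like subunit, had 69.6, 50.05 and 158 FPKM with enzalutamide and 67.9, 59.1 and 110 FPKM without it. Both 20 µM libraries were above the other 4, and it rose by 0.93 ± 0.25 (adjusted p = 0.0356). PSMB5, the chymotrypsin-like subunit and main target of bortezomib, had 59.95, 58.1 and 60.3 FPKM with enzalutamide and 64.4, 63.8 and 53.3 FPKM without it. PSMB5 stayed within this narrow range, with an effect of -0.13 ± 0.20 (adjusted p = 0.637). PSMB7, the trypsin-like subunit, had 34.4, 35.1 and 44.5 FPKM with enzalutamide and 43.4, 34.7 and 51.2 FPKM without it. Its 20 µM libraries were the highest of each arm, and its effect of 0.30 ± 0.19 did not pass (adjusted p = 0.266).

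Among the beta subunits without a proteolytic site, PSMB2 was the other that rose. PSMB2 had 22.3, 18.5 and 46.6 FPKM with enzalutamide and 23.3, 18.6 and 33.1 FPKM without it, an effect of 0.76 ± 0.21 (adjusted p = 0.0404). PSMB1 was higher at 20 than at 10 µM by 0.79 ± 0.23 (adjusted p = 0.0443). PSMB3 was the 1 gene of the ring with both 20 µM libraries below their own library without PTUPB. It had 127, 73.9 and 109 FPKM with enzalutamide and 114, 93.1 and 87.2 FPKM without it. Its effect of -0.31 ± 0.24 did not pass (adjusted p = 0.356). In all, 2 of the 7 genes, 28.6%, rose at 20 µM, beside 15.9% of all tested genes. The median effect was 0.54.

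The inducible subunits PSMB8, PSMB9 and PSMB10 replace the 3 catalytic subunits in the immunoproteasome, which interferon induces. All 3 were below the filter, and PSMB11, the thymus subunit, was listed at 0 in every library. PSMB10 had 0.248, 0.490 and 1.765 FPKM with enzalutamide and 0.217, 0.566 and 0.800 FPKM without it. PSMB9 had 0.207, 0.209 and 0.745 FPKM with enzalutamide and 0.163, 0.121 and 0.317 FPKM without it. PSMB8 had 1.09, 1.11 and 0.928 FPKM with enzalutamide and 0.580, 0.993 and 0.975 FPKM without it. PSMB10 and PSMB9 were thus highest at 20 µM in each arm and PSMB8 was not. In the fit without a filter their effects were 0.86 ± 0.27 (adjusted p = 0.172), 0.36 ± 0.15 (adjusted p = 0.265) and 0.10 ± 0.26 (adjusted p = 0.88), so 0 of the 3 passed in limma, while PSMB10 had an unadjusted p of 0.0341. PSMB10 shares 34.8% of its exon bases with AC040162.1 on the same strand. PSMG4, at a mean of 1.06 FPKM, lay just inside the filter and PSMB8, at 0.946 FPKM, just outside it.

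The 6 cap ATPases, PSMC1 to PSMC6, form the ring that unfolds substrates. All 6 effects at 20 µM PTUPB were positive, with a median of 0.55, where 6517 of the 12960 tested genes had a positive effect. Of the 6, 1 gene passed, 16.7% beside 15.9% of all tested genes that rose. Against 10 µM 4 of the 6 passed, 66.7% beside 16.5% of all tested genes that were higher. PSMC4 had 40.7, 32.1 and 107 FPKM with enzalutamide and 43.7, 36.6 and 65.0 FPKM without it, and it rose by 0.97 ± 0.27 (adjusted p = 0.0425). PSMC3 had 31.7, 21.0 and 66.6 FPKM with enzalutamide and 39.4, 31.3 and 45.3 FPKM without it. In both genes the 10 µM library was the lowest and the 20 µM library the highest of each arm. PSMC3 did not pass against no PTUPB, at 0.62 ± 0.30 (adjusted p = 0.16), and was higher than at 10 µM by 1.07 ± 0.30 (adjusted p = 0.0417).

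PSMC1 and PSMC5 had the smallest ATPase effects. PSMC1 had 6.76, 6.38 and 11.6 FPKM with enzalutamide and 7.48, 6.64 and 7.97 FPKM without it, an effect of 0.39 ± 0.21 (adjusted p = 0.2). PSMC5 had 18.96, 17.0 and 29.4 FPKM with enzalutamide and 23.9, 19.5 and 22.1 FPKM without it, an effect of 0.25 ± 0.23 (adjusted p = 0.432). PSMC5 was the 1 ATPase whose 20 µM library without enzalutamide lay below the control. PSMC1 shares 75.8% of its exon bases with NRDE2 on the opposite strand, and the sources used here do not say whether counting used strand.

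Of the 11 other cap subunits 1 rose at 20 µM, 4 were higher than at 10 µM, and the median effects were 0.46 and 0.74. The shares are 9.09% and 36.4%, beside 15.9% and 16.5% of all tested genes. PSMD8, a lid subunit on chr19:38374536-38383824 of GRCh38, had the largest dose difference of all 42 genes. It had 44.1, 40.1 and 127 FPKM with enzalutamide and 44.5, 41.5 and 90.2 FPKM without it. Both 20 µM libraries were above the other 4 by a wide margin, and the additive effects were 1.25 ± 0.22 over no PTUPB (adjusted p = 0.012) and 1.37 ± 0.22 over 10 µM (adjusted p = 0.0107).

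Other cap subunits set by role were PSMD14, PSMD4 and PSMD11. PSMD14, the deubiquitinase of the lid, had 7.97, 6.81 and 18.2 FPKM with enzalutamide and 9.12, 8.17 and 12.4 FPKM without it. PSMD4, a ubiquitin receptor, had 35.4, 34.4 and 74.1 FPKM with enzalutamide and 42.3, 37.6 and 50.2 FPKM without it. PSMD11, a lid subunit, had 14.8, 13.7 and 26.7 FPKM with enzalutamide and 17.7, 15.4 and 23.5 FPKM without it. In all 3 genes both 20 µM libraries were above the other 4, and none passed against no PTUPB, at 0.75 ± 0.24 for PSMD14 (adjusted p = 0.0568), 0.64 ± 0.25 for PSMD4 (adjusted p = 0.102) and 0.60 ± 0.19 for PSMD11 (adjusted p = 0.057). Against 10 µM, PSMD14 was higher by 0.92 ± 0.24 (adjusted p = 0.0329) and PSMD11 by 0.74 ± 0.19 (adjusted p = 0.032), while PSMD4 did not pass (adjusted p = 0.0696).

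The scaffold subunits PSMD1 and PSMD2 and the lid subunit PSMD3 had negative estimates. PSMD3 had 42.4, 32.1 and 48.5 FPKM with enzalutamide and 44.6, 38.1 and 32.65 FPKM without it, an effect of -0.12 ± 0.25 (adjusted p = 0.722). PSMD1 had 20.4, 17.0 and 20.6 FPKM with enzalutamide and 23.5, 19.8 and 19.9 FPKM without it, an effect of -0.11 ± 0.18 (adjusted p = 0.664). PSMD2, the most abundant cap gene of the control, had -0.10 ± 0.20 (adjusted p = 0.715). In PSMD1, PSMD2 and PSMD3 the 20 µM library lay above enzalutamide alone in the arm with enzalutamide and below the control in the arm without it.

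**Figure D3:**
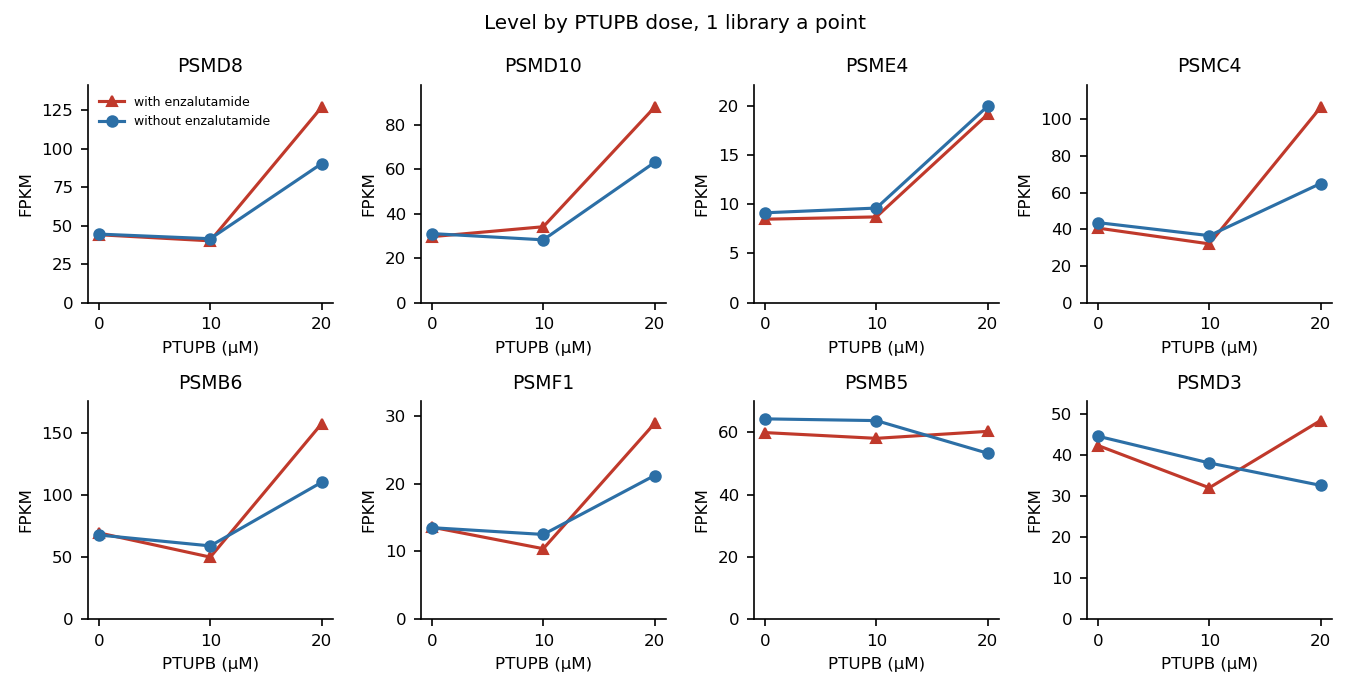
FPKM (y axis, from 0) against PTUPB dose in µM for 8 proteasome genes, with enzalutamide (red triangles) and without it (blue circles), 1 library per point. PSMD8, PSMD10, PSME4, PSMC4, PSMB6 and PSMF1 are highest at 20 µM in both arms, whereas PSMB5 and PSMD3 are lowest at 20 µM in the arm without enzalutamide.

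The activators cap the core in place of the ATPase cap, and PSME4 alone of the 4 rose, 25% beside 15.9% of all tested genes. PSME4, the large single-chain activator gene on chr2:53864067-53970840 of GRCh38, had 8.46, 8.70 and 19.1 FPKM with enzalutamide and 9.11, 9.59 and 19.9 FPKM without it. Its arms ran nearly parallel, the 2 libraries at 20 µM stood at over 2-fold the level of their own library without PTUPB (2.26-fold with enzalutamide and 2.19-fold without), and the additive effect was 1.07 ± 0.16 (adjusted p = 0.00805). PSME1 and PSME2, whose products form the interferon-inducible ring activator, did not pass. PSME1 had 74.0, 58.3 and 53.6 FPKM with enzalutamide and 56.6, 54.5 and 60.7 FPKM without it, an effect of -0.18 ± 0.22 (adjusted p = 0.553). PSME2 had 13.4, 11.9 and 12.1 FPKM with enzalutamide and 12.9, 14.03 and 10.3 FPKM without it, an effect of -0.22 ± 0.18 (adjusted p = 0.396). PSME3, the nuclear ring activator, had 30.2, 27.9 and 34.3 FPKM with enzalutamide and 34.2, 29.3 and 29.4 FPKM without it, an effect of -0.02 ± 0.19 (adjusted p = 0.95). In none of these 3 ring activator genes did both 20 µM libraries lie above, or both below, all other libraries. For PSME2 both 20 µM libraries lay below both libraries without PTUPB, and for PSME3 both 10 µM libraries lay below all others. The difference between PSME4 and these 3 genes was not tested.

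PSMF1, which encodes an inhibitor that binds the core, rose at 20 µM PTUPB. It had 13.6, 10.4 and 28.9 FPKM with enzalutamide and 13.5, 12.5 and 21.2 FPKM without it, an effect of 0.83 ± 0.22 (adjusted p = 0.035). Both 20 µM libraries were above the other 4.

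Of the 7 assembly factors, PSMD10 rose at 20 µM and PSMG3 was the other that was higher at 20 than at 10 µM. The shares are 14.3% and 28.6%, beside 15.9% and 16.5% of all tested genes. PSMD10, also called gankyrin, is a chaperone of the cap base on chrX:108084207-108091618 of GRCh38. It had 29.6, 34.1 and 87.8 FPKM with enzalutamide and 31.0, 28.2 and 63.0 FPKM without it, and its effect of 1.27 ± 0.21 was the largest at 20 µM among the 42 genes (adjusted p = 0.0101). The other base chaperones, PSMD5 and PSMD9, did not pass. PSMD5 had 9.82, 9.04 and 11.8 FPKM with enzalutamide and 10.8, 9.69 and 10.3 FPKM without it, an effect of 0.09 ± 0.17 (adjusted p = 0.713). PSMD9 had 0.892, 1.32 and 1.47 FPKM with enzalutamide and 1.45, 1.42 and 2.05 FPKM without it, an effect of 0.35 ± 0.23 (adjusted p = 0.289), and 19.9% of its exon bases are shared with other genes on the same strand. The named pseudogenes PSMD10P1 and PSMD10P2 reached 2.56 and 2.61 FPKM, the highest of 32 pseudogenes named after 12 of the proteasome genes, of which 21 were at 0 in every library.

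The core chaperones PSMG1 to PSMG4 work as pairs, PSMG1 with PSMG2 and PSMG3 with PSMG4. PSMG1 had 13.9, 12.8 and 29.5 FPKM with enzalutamide and 16.01, 13.8 and 18.9 FPKM without it, an effect of 0.63 ± 0.25 (adjusted p = 0.102). PSMG2 had 8.88, 6.405 and 8.95 FPKM with enzalutamide and 8.79, 9.10 and 8.12 FPKM without it, an effect of -0.05 ± 0.20 (adjusted p = 0.878). Both 20 µM libraries of PSMG1 were above the other 4, and those of PSMG2 were not. PSMG3 had 15.1, 11.1 and 28.1 FPKM with enzalutamide and 16.4, 13.7 and 18.9 FPKM without it, and was higher at 20 than at 10 µM by 0.85 ± 0.25 (adjusted p = 0.0467). PSMG4 had 1.19, 1.40 and 0.398 FPKM with enzalutamide and 1.10, 1.63 and 0.662 FPKM without it, an effect of -0.49 ± 0.26 (adjusted p = 0.2). PSMG4 was the gene in which both 20 µM libraries lay below the other 4, and limma-voom on recovered fragments called it lower at 20 µM. The difference between partners was not tested, and 15% of PSMG4's exon bases lie opposite SLC22A23 and TUBB2B.

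At 10 µM PTUPB, limma called 0 of the 42 genes in either direction, 0 reached an unadjusted p under 0.05, and limma-voom also called 0. The call rate over all tested genes was 0% too, with 3.7% under an unadjusted p of 0.05. The estimates nevertheless lay on 1 side, with 36 of 42 negative and a median of -0.17, against -0.03 over all tested genes. With enzalutamide, 36 of the 42 genes were lower at 10 µM PTUPB than with enzalutamide alone (median -0.18, all genes -0.05), and 43.1% of all tested genes were higher. Without enzalutamide 35 of 42 were lower than the control (median -0.15, all genes -0.03), and 45.4% of all tested genes were higher. PSMB3 had the lowest estimate, -0.53 ± 0.24 (adjusted p = 0.977). In TPM the median over all genes shifted by -0.12 for this effect, and the proteasome median less that of all genes was -0.15, against -0.14 on the deposited scale. The size of this difference depended on single libraries. It was -0.02 without the control and -0.03 without 10 µM PTUPB plus enzalutamide. Leaving out 10 µM PTUPB gave -0.22, and leaving out enzalutamide alone gave -0.23.

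Enzalutamide as a term of the additive fit also changed 0 of 42 genes by limma, with 0 at an unadjusted p under 0.05 and 0 by limma-voom, against 0% of all tested genes called and 4.83% under an unadjusted p of 0.05. The median effect was 0.02, against 0.01 over all tested genes. The single libraries split by PTUPB dose. Enzalutamide alone was lower than the control in 30 of the 42 genes and higher in 12 (median -0.10), where 49.3% of all tested genes were higher. In TPM it was lower in all 42 (median -0.52, 15.3% of all tested genes higher), and with total fragments in 39 (median -0.27, 30.1% higher). The library of 10 µM PTUPB plus enzalutamide was lower than 10 µM PTUPB in 37 and higher in 5 (median -0.15), where 48.6% were higher. At 20 µM PTUPB the sign was the other, with 37 genes, 88.1%, higher with enzalutamide than without it (median 0.27), against 53.1% of all tested genes. In TPM this last count was 20 higher and 22 lower with a median of 0.00, where the median of all genes was -0.24, so the direction at 20 µM depends on the scale while the position relative to all genes, 0.24 in TPM and 0.23 as deposited, does not.

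In 25 of the 42 genes, 59.5%, the library with enzalutamide was lower at 0 and 10 µM PTUPB and higher at 20 µM, a pattern shown by 17.1% of all tested genes. The count was 18, or 42.9%, against 17% in TPM and 22, or 52.4%, against 16.1% with total fragments. The library of 10 µM PTUPB plus enzalutamide was the lowest of the 6 in 30 genes, 71.4%, against 15.6% of all tested genes. In TPM it was the lowest in 31, or 73.8%, against 19.5%, and with total fragments in 29, or 69%, against 13.2%. The library of 20 µM PTUPB plus enzalutamide was the highest of the 6 in 30 genes, 71.4%, against 31.8% of all tested genes. On other scales this count was 18, or 42.9%, against 18.4% of genes in TPM, and 21, or 50%, against 21.4% with total fragments. These 3 orderings were counted after the values were seen, and each group behind them is 1 library.

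The library of 20 µM PTUPB plus enzalutamide exceeded enzalutamide alone by log2 1 or more in 11 of 42 genes, 26.2%, against 13.5% of all tested genes, with a median difference of 0.59. These were PSMB2, PSMB6, PSMC3, PSMC4, PSMD4, PSMD8, PSMD10, PSMD14, PSME4, PSMF1 and PSMG1. The library of 20 µM PTUPB exceeded the control by that much in PSMD8 and PSME4, 2 of 42, against 9.47% of all tested genes, with a median of 0.21. No gene was lower by log2 1 in either pair, where 15.8% of all tested genes were lower with enzalutamide and 12.7% without. At any size, 37 genes, 88.1%, were higher with 20 µM PTUPB plus enzalutamide than with enzalutamide alone, against 50.3% of all tested genes. With 20 µM PTUPB, 29 genes, 69%, were higher than in the control, against 49.5%. As many as 28 of the 42 genes were higher in both pairs, which do not have a library in common, against 38.6% of all tested genes, and 4 were lower in both, against 38.5%. With total fragments as the scale the counts at log2 1 were 6 with enzalutamide and 1 without.

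Between the doses, 20 µM PTUPB plus enzalutamide exceeded 10 µM plus enzalutamide by log2 1 or more in 15 of 42 genes, 35.7%, against 13.7% of all tested genes, with a median of 0.77. PSMC4, PSMD8, PSMC3 and PSMB6 led, at 3.32-fold, 3.16-fold, 3.16-fold and 3.15-fold. The library of 20 µM PTUPB exceeded 10 µM by that much in 2 genes, PSMD10 at 2.23-fold and PSMD8 at 2.17-fold, against 9.27% of all tested genes, with a median of 0.39. No gene was lower by that much, where 14.7% of all tested genes were lower with enzalutamide and 13.1% without. At any size, 39 genes, 92.9%, were higher with enzalutamide, against 51.3% of all tested genes, and 33, or 78.6%, without it, against 49.9%. These pairs share their 20 µM libraries with the pairs above. With total fragments the first count was 9, and in TPM the count without enzalutamide was 8.

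The 20 µM difference was larger with enzalutamide than without it in 39 of 42 genes, against 52.5% of all tested genes. In TPM it was larger in 39 of 42, against 58.5% of all tested genes, and with total fragments in 38 of 42, against 51.5%. The term for enzalutamide by linear PTUPB dose, fitted with 1 residual degree of freedom, called 0 of 42 genes in limma and 0 in limma-voom, against 0% of all tested genes in limma. No proteasome gene had an unadjusted p under 0.05, where 9.41% of all tested genes did. The median of the term was 0.20 per 10 µM, against 0.02 over all tested genes, and the lowest adjusted p was 0.548, for PSMG1 at 0.41 ± 0.18. No difference between the arms was therefore shown for any single gene.

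**Figure D4:**
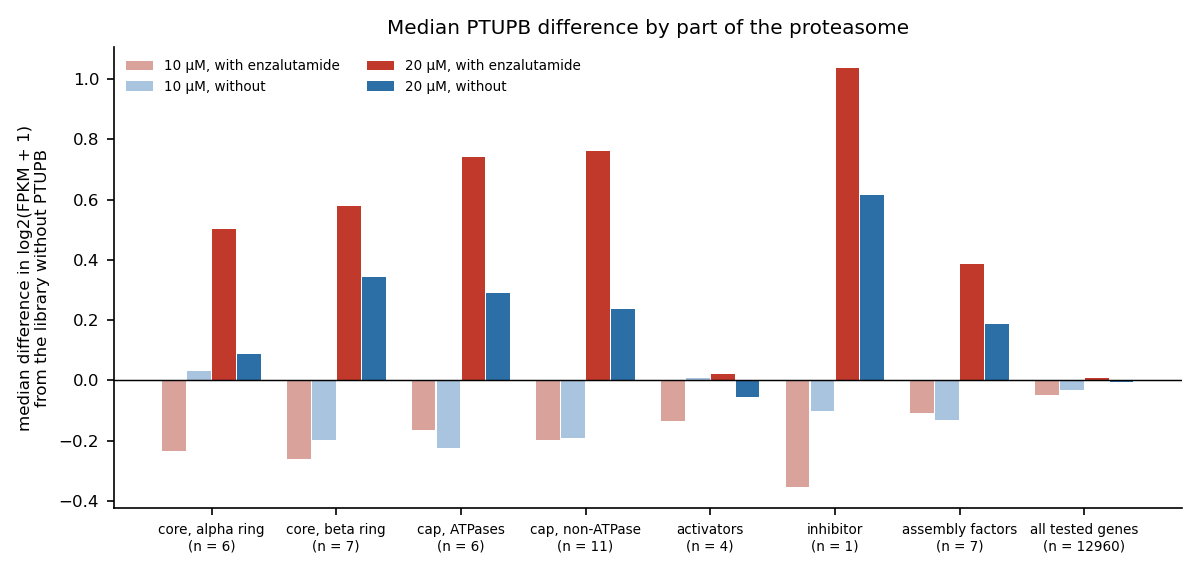
Median difference in log2(FPKM + 1) from the library without PTUPB (y axis), by part of the proteasome and over all tested genes, with n the genes in each; pale bars are 10 µM and dark bars 20 µM, red with enzalutamide and blue without. At 20 µM with enzalutamide the medians are 0.74 for the cap ATPases and 0.76 for the other cap subunits, against 0.02 for the activators and 0.01 for all tested genes.

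By group, the median difference of 20 µM PTUPB plus enzalutamide over enzalutamide alone was 0.50 for the alpha ring, 0.58 for the constitutive beta ring, 0.74 for the cap ATPases, 0.76 for the other cap subunits, 0.39 for the assembly factors and 0.02 for the activators. Without enzalutamide the medians of 20 µM PTUPB over control were 0.09, 0.34, 0.29, 0.24, 0.19 and -0.06 in that order of groups. Differences between groups were not tested. Summed over its 11 genes, the non-ATPase cap stood at 299, 262 and 498 FPKM with enzalutamide and at 336, 290 and 381 FPKM without it. The 7 constitutive beta genes summed to 481, 376 and 679 FPKM with enzalutamide and to 471, 420 and 554 FPKM without it. In both sums the 10 µM library was the lowest of its arm and the 20 µM library the highest, and the same order held for the sums of the cap ATPases and the assembly factors. The 6 tested alpha genes summed to 215, 166 and 299.8 FPKM with enzalutamide and to 194, 203 and 199 FPKM without it, where the 10 µM library was the highest. The 4 activators summed to 126, 107 and 119 FPKM with enzalutamide, where enzalutamide alone was the highest, and to 113, 107 and 120.4 FPKM without it.

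Other proteasome genes fall outside the symbol rule. Of 12 such genes, chosen with earlier results of these data known, 5 rose at 20 µM PTUPB and 0 fell, with a median effect of 0.39 against 0.00 over all tested genes. The share that rose was 41.7%, against 15.9% of all tested genes, of which 18.2% fell. ADRM1, a ubiquitin receptor of the cap, had 20.3, 22.3 and 74.2 FPKM with enzalutamide and 28.5, 24.8 and 43.1 FPKM without it, and rose by 1.20 ± 0.32 (adjusted p = 0.0365). ZFAND2A, an arsenite-inducible protein that binds the cap, rose by 1.98 ± 0.20 (adjusted p = 0.00349), and ZFAND5, a zinc-finger protein that stimulates the proteasome, by 1.41 ± 0.17 (adjusted p = 0.00505). AKIRIN2, which brings proteasomes into the nucleus, and TXNL1, a cap-bound thioredoxin, were the other genes that rose. POMP, the maturation chaperone of the core, had 0.31 ± 0.22 (adjusted p = 0.308), and SEM1, the smallest cap subunit, -0.07 ± 0.18 (adjusted p = 0.794).

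Of 13 genes that control proteasome transcription, 12 were tested, 8 rose at 20 µM PTUPB and 2 fell, with a median effect of 1.07 against 0.00 over all tested genes. The share that rose was 66.7%, where 15.9% of all tested genes rose and 18.2% fell. This list too was chosen with earlier results of these data known. NFE2L1 had 94.6, 132 and 157 FPKM with enzalutamide and 60.2, 90.3 and 181 FPKM without it, and rose by 1.15 ± 0.28 (adjusted p = 0.0274). Its level climbed with each dose in both arms, and between 20 and 10 µM it did not pass, at 0.62 (adjusted p = 0.134). NFE2L1 is made in the endoplasmic reticulum and is drawn out, stripped of sugars and cut before it enters the nucleus. SEL1L and SYVN1, of the ligase that extracts it, rose by 1.73 ± 0.20 (adjusted p = 0.00466) and 1.12 ± 0.19 (adjusted p = 0.0107). NGLY1, which removes its sugars, rose by 0.92 ± 0.17 (adjusted p = 0.0125). DDI2, the protease that cuts it, had 4.89, 4.15 and 2.02 FPKM with enzalutamide and 4.96, 4.38 and 2.55 FPKM without it, and fell by 0.85 on the log2 scale (SE 0.17, adjusted p = 0.0164).

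The partners and relatives of NFE2L1 follow. The small MAF gene MAFG had 5.55, 6.13 and 27.2 FPKM with enzalutamide and 5.43, 5.32 and 22.1 FPKM without it, and rose by 1.98 ± 0.17 (adjusted p = 0.00292). MAFF, NFE2L2 and BACH1, a repressor at the same element, rose as well, by 1.36, 1.31 and 1.01, and MAFK did not pass (0.12 ± 0.24, adjusted p = 0.737). NFE2L3 had 22.7, 17.0 and 3.36 FPKM with enzalutamide and 18.0, 21.4 and 5.25 FPKM without it, and fell by 2.02 on the log2 scale (SE 0.24, adjusted p = 0.00504). VCP, the ATPase that pulls NFE2L1 from the membrane, had 0.31 ± 0.20 (adjusted p = 0.279).

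**Figure D5:**
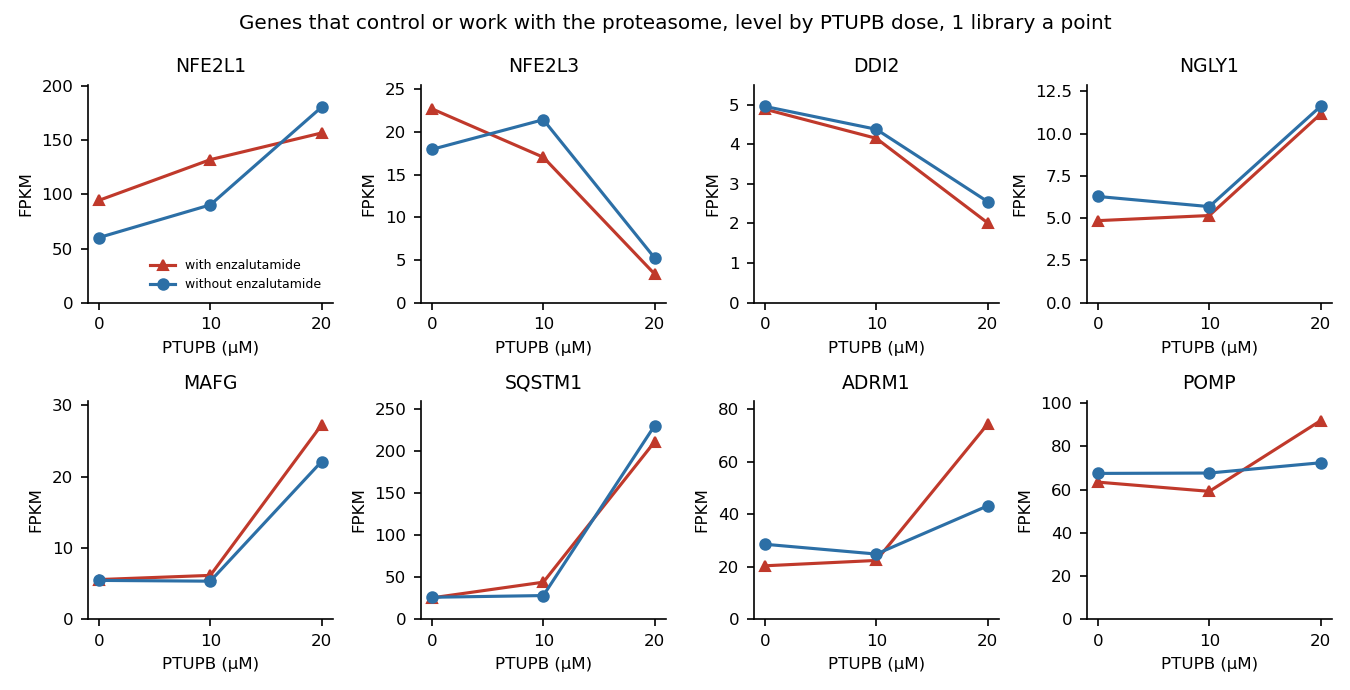
FPKM (y axis, from 0) against PTUPB dose in µM for 8 genes that control the proteasome or work with it, with enzalutamide (red triangles) and without it (blue circles), 1 library per point. NFE2L1 climbs at each dose, MAFG and SQSTM1 stand at 20 µM well above the lower doses, and NFE2L3 and DDI2 are lowest at 20 µM in both arms.

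Of 17 ubiquitin, shuttle and chaperone genes, 16 were tested, 5 rose at 20 µM PTUPB and 0 fell, with a median effect of 0.42 against 0.00 over all tested genes. This is 31.2% of those tested, beside the 15.9% of all tested genes that rose and the 18.2% that fell. These genes were likewise chosen with earlier results of these data known. UBB, a polyubiquitin gene, had 0.06 ± 0.25 (adjusted p = 0.875). SQSTM1, an autophagy receptor for ubiquitin-tagged cargo, had 25.3, 44.0 and 211 FPKM with enzalutamide and 26.01, 28.0 and 230 FPKM without it, and rose by 3.06 ± 0.25 (adjusted p = 0.00288). UBQLN2, a shuttle that carries tagged proteins to the cap, and HMOX1, a stress-induced heme-degrading enzyme, also rose, by 0.65 ± 0.17 (adjusted p = 0.0364) and 2.80 ± 0.23 (adjusted p = 0.00292). The heat shock genes BAG3 and DNAJB1 did not pass, at 0.53 ± 0.34 (adjusted p = 0.273) and 0.41 ± 0.41 (adjusted p = 0.473). Their arms moved apart: 20 µM PTUPB plus enzalutamide stood at 2.34-fold and 2.43-fold of enzalutamide alone. Without enzalutamide, 20 µM PTUPB stood at 0.92-fold and 0.74-fold of the control, 1 library over another in each case.

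The promoter letters introduced above were counted in the windows by call, with no test. A gene counted if any of its windows held the letters, and the 42 proteasome genes had 51 windows. The core TGACNNNGC, searched on both strands, was found for 15 of the 42 genes, 35.7%. It was found for 16.1% of all 27305 genes with a RefSeq window and 18% of the protein-coding ones. Of the 13 genes with a window that were higher at 20 than at 10 µM, 2 had it, PSMC4 and PSME4, against 12 of the 23 other tested proteasome genes, PSMB3, PSMD3 and PSMD12 among them. The shares are 15.4% and 52.2%, and over all tested genes they were 21.8% of those that were higher and 19.2% of the others. Among the 12, PSMD12 and PSMG1 lay close to the threshold, at 0.78 ± 0.23 (limma adjusted p = 0.0503) and 0.79 ± 0.25 (adjusted p = 0.0579). Split instead by the call of 20 µM against no PTUPB, the gap was smaller. TGACNNNGC was then found for 2 of 7 genes that rose, 28.6%, and for 12 of 29 others, 41.4%. Both sets of calls depend on single libraries, as given above. The NF-Y box CCAAT was in 8 of the 13 and in 9 of the 23. It was found for 47.6% of the proteasome genes with a window and 39.7% of all genes with a window. TGATGNAA, the composite ATF4-C/EBP element, was found for 1 proteasome gene, PSMF1, 2.38% against 4.46% of all genes with a window. None of these motifs contains another, and all were searched on both strands. A match is a description of the letters in a window and was not tested as a binding site.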

How the data were processed

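RNA was measured by paired-end mRNA sequencing in 6 libraries of C4-2B MDVR cells, 1 per group, with 20156523 to 29450436 fragments each. The authors deposited 1 table of 58735 genes. Per the submitters' processing notes, HISAT and Cufflinks were used, without versions, and the build and strand setting are not given in the sources used here. The deposited values were read as FPKM because each, multiplied by the gene's GENCODE 29 exon length, is a whole number of steps per library (100% of values within 0.05), which also recovers fragments. Their scale per library tracks size factors from medians of ratios. All 58735 identifiers matched GENCODE 29.

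Under R 4.3.3, limma 3.58.1 with a mean-variance trend was run on log2(FPKM + 1) for the 12960 genes with a mean of 1 FPKM or more. The additive model has 2 residual degrees of freedom, and the model with enzalutamide by linear PTUPB dose has 1. Calls are at an adjusted p under 0.05. Pairs of libraries were counted at log2 1 or more, with no test. Alternatives were no filter, a pseudocount of 0.1, TPM, total fragments, no trend, limma-voom on fragments and leaving out each library. The fit was tested on simulated data. Python 3.11.15, numpy 2.4.6, pandas 2.3.3 and matplotlib 3.10.9 were used otherwise. The genes and lists were chosen with earlier results of these data known. Values in every library are given for the catalytic, activator, inhibitor and assembly genes, for 5 others set by role, and for the 2 largest and 2 smallest 20 µM effects of each core and cap group. Some genes and 1 motif are not reported here.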

Additional observations from a re-analysis of the deposited data

How the results depend on the processing

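All 42 genes kept 0 calls at 10 µM PTUPB, for enzalutamide and for the interaction under every alternative run (the interaction could not be refitted with a library left out), and no called gene reversed. The alternative scales of the 4 orderings were chosen after seeing the data; 20 µM PTUPB plus enzalutamide was the highest library in 30 genes as reported and in 18 in TPM. Risen at 20 µM PTUPB were 8 genes as reported, 2 without the filter on low values, 13 by limma-voom, and 0 to 21 when 1 library was left out; limma-voom also called 1 gene, PSMG4, as fallen. Higher at 20 than at 10 µM were 16 genes as reported, 1 without the filter, and 0 to 23 when 1 library was left out, and 1 gene, PSMG4, was lower both without the mean-variance trend and by limma-voom. Without the filter and with 1 library left out, the count of all tested genes that rose moved in the same direction as the proteasome count. Without the filter more genes were tested, and with 1 library left out 1 residual degree of freedom remains. Other causes were not tested.

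Of the pair counts at log2 1 or more, those that moved by over 1.5 times were these. With total fragments, 20 µM PTUPB over control gave 1 gene higher, 20 µM plus enzalutamide over enzalutamide 6, and 20 µM plus enzalutamide over 10 µM plus enzalutamide 9. In TPM, 20 over 10 µM PTUPB gave 8 genes higher, and 20 µM plus enzalutamide over 10 µM plus enzalutamide gave 1 lower. With a pseudocount of 0.1, 1 gene was lower in each of 20 µM plus enzalutamide over enzalutamide, 20 over 10 µM PTUPB, and 20 µM plus enzalutamide over 10 µM plus enzalutamide. The all-gene median shifted in TPM by 0.15 for 20 against 10 µM and by -0.24 for enzalutamide, and with total fragments by -0.11 for enzalutamide. No paired analysis was possible because each group has 1 library and the labels carry no replicate numbers. Depth limits PSMG4, PSMA6 and PSMD9 and the genes below the filter most, and the single library per group limits every value.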
